A study of Rattus norvegicus with 8 samples.

Results

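The genes of the cytosolic ribosomal proteins were compared in lumbar spinal motoneurons taken from Wistar albino rats at postnatal day 1 (P1), while axons are being myelinated, and at postnatal day 21 (P21), once myelination is complete. Each of the 8 arrays (4 at P1, 4 at P21) held RNA of motoneurons cut out by laser from stained sections, from a pool of 4 rats, and the values are linear intensities of probe sets. No animal was treated, and each of the 4 litters gave animals to both ages. The members are all probe sets that the platform annotation gives exactly 1 symbol, made of Rpl or Rps and a number, or Rplp0, Rplp1, Rplp2 or Rpsa. Probe sets of the Rps6k kinases (14) and those whose symbol is marked as a like copy or a pseudogene (8) were left out. This gave 43 of the 14217 genes with such a probe set, on 49 of the 31042 probe sets, and 44 of them, for 40 genes, were bright enough to be tested.

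Ribosomes are built of a small and a large subunit, each a core of ribosomal RNA clad with many small basic proteins that are needed in equal numbers. Their messenger RNAs are among the most abundant in most cells and usually begin with a run of pyrimidines, the 5′ terminal oligopyrimidine (TOP) tract, through which growth signals acting by way of mTOR control their translation as a class. Neurons make ribosomes throughout life and hold them in the Nissl substance, which the cresyl violet stain used to find motoneurons colours.

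Every one of the 44 tested probe sets had a P21 level below its P1 level, most by a small amount. With quantile normalization this held for 37, and without single arrays for 40 to 44. The median log2 change of P21 over P1 was -0.19, a fall of 12.1%, with the middle of the members between -0.26 and -0.11, against a median of 0.07 over all 19155 tested probe sets. Of the 44, 11 fell with an adjusted p under 0.05 in limma's test (Benjamini-Hochberg over all tested probe sets), 0 rose and 33 did not pass. The 11 are 25% of the members, beside 17.4% of all tested probe sets that fell, 20.8% that rose and 38.3% that passed in either direction. Without adjustment 18 of the 44 members had a p under 0.05 in limma's test, none of them higher at P21. Of all 19155, 8987 had one in either direction, so these counts do not compare falls alone. A change below 0, whatever its p, was found in 43.1% of all tested probe sets. The change exceeded 1 on the log2 scale for 1 member, Rps4y2, and 0.5 for 1 more, a probe set of Rpsa.

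**Figure D1:**
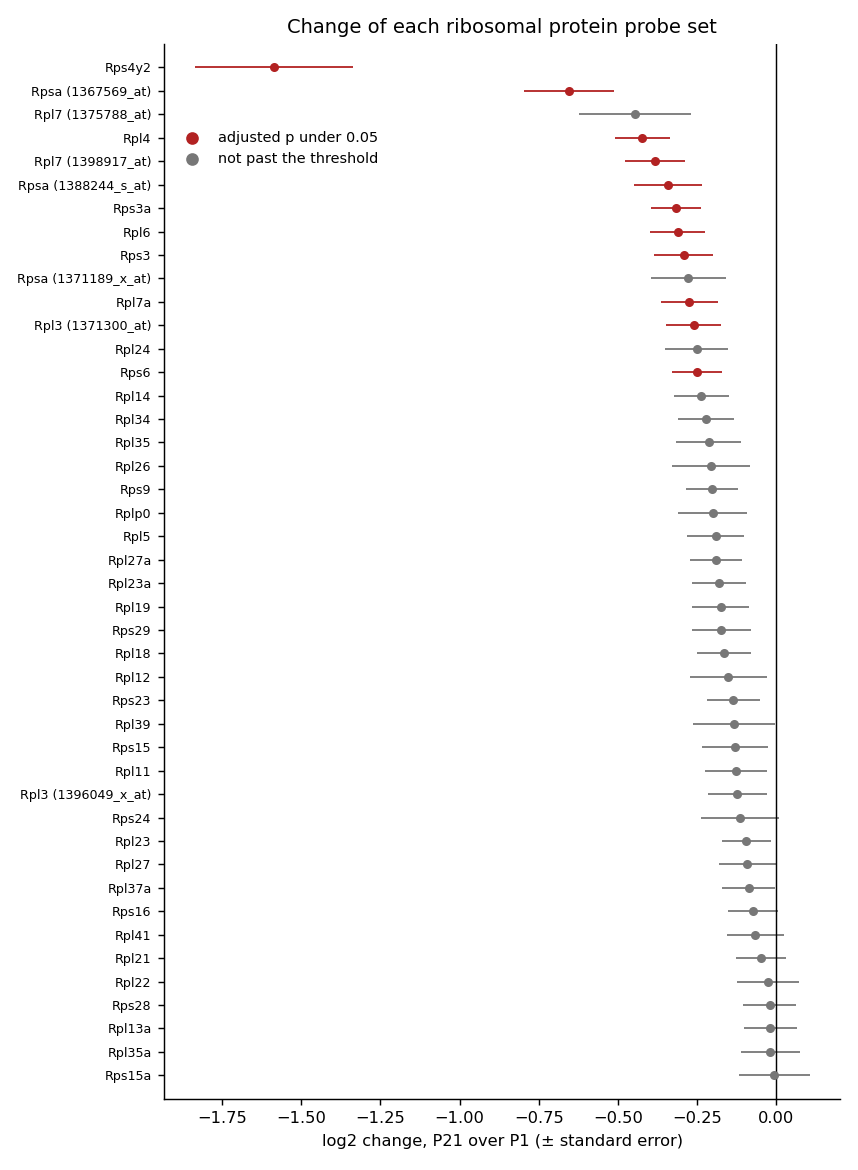
The log2 change of P21 over P1 with its standard error for each of the 44 tested probe sets (8 arrays), red where the adjusted p was under 0.05; the probe set identifier is given where a gene has several. All 44 points lie left of 0, between -1.59 and -0.01, and 11 are red.

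Counting each gene by its probe set of highest mean, 10 of 40 genes fell (25%) and 0 rose, beside 17.4% of 10961 genes that fell and 22.1% that rose. The P21 intensities all lay below all the P1 intensities in 19 of the 44 probe sets (43.2%), beside 17.7% of all tested probe sets with the same order and 20.4% with the opposite one. Neither this background nor that of the pairs below was matched for brightness. Bright probe sets of all genes leaned lower at P21, as given further below. Taken as pairs by number, a pairing that is not settled, the arrays gave a lower P21 value in 4 of 4 pairs for 37 members (84.1%, beside 27.5% of all tested probe sets). It was lower in 3 pairs for 5 members, in 2 pairs for 1 and in fewer for 1. Leaving out P1 replicate 3, P1 replicate 4, P21 replicate 1 or P21 replicate 2 lowered the 11 calls to 6, 5, 6 and 6, and without any 1 array 0 members rose. The members' share that fell was then 13.6, 11.4, 13.6 and 13.6%, beside 14.4, 13.9, 15.2 and 14.2% of all tested probe sets, so without any of these 4 arrays it was not above the background. The 10 gene calls became 5, 4, 5 and 5 without those arrays and 6 without P21 replicate 4, given without a share over all genes. In the bulk RNA of a pool, fewer cells of a type and less RNA per cell cannot be told apart.

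The start sites of a few members are shown because the genes share the TOP tract as a known feature that the choice of members did not use. Each run holds the 15 bases before and the 15 from the annotated first base of the transcript on, 5′ to 3′ on the gene's strand, from RefSeq's annotation of the rat assembly GRCr8. Capitals mark a C at the first base and the C and T that follow it without a break, where at least 4 follow. The first 5 genes fell by the test, and the other 5 did not pass. They were picked as examples, so the share with capitals among those shown is not that of either group. The counts over all matched genes follow the sequences.
Rpsa, chr8:128728864-128728893, + strand: cctttccgcgctaccctggaacgggtccgt
Rpl4, chr8:73566462-73566491, + strand: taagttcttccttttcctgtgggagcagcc
Rps3a, chr2:173827028-173827057, - strand: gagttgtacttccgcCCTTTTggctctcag
Rps3, chr1:163195762-163195791, - strand: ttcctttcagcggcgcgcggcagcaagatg
Rpl3, chr7:113507976-113508005, - strand: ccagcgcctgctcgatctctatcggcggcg
Rplp0, chr12:46718376-46718405, - strand: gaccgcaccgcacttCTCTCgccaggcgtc
Rpl19, chr10:83519049-83519078, + strand: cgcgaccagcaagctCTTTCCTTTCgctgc
Rpl35a, chr11:81235007-81235036, - strand: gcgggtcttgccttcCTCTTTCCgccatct
Rps15, chr7:10068101-10068130, - strand: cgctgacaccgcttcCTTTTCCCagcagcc
Rps23, chr2:23814502-23814531, + strand: tgggtccttcctgcctctcttctctctttc

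Of the 43 member genes, 36 matched an entry of that table by symbol and gene identifier. The tract stood at the annotated first base in 11 of the 36 (30.6%), beside 2.63% of 33469 start sites of all genes. Within 5 bases of that base on either side it stood in 20 of 36 (55.6%) and in 17.0% of all. Among the genes tested, it stood at the first base in 1 of the 9 that fell, Rps3a, and in 9 of the 25 that did not pass. Within 5 bases on either side it stood in 3 of those 9 and in 15 of those 25. In Rps23 the annotated first base is a T inside a longer run of C and T, and in Rpl4 it is a C with fewer than 4 C or T after it. The motif CGGAAG, the core bound by ETS factors such as GABP, was found on either strand of the 300 bases around the start in 17 of 36 (47.2%, beside 16.6% of all), and GGGCGG, bound by Sp1, in 24 of 36 (66.7%, beside 33.1%). AAGATGGC, bound by YY1, was found in 4 of 36 (11.1%, beside 3.17%). A match is a description of the letters in this window only.

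In the small subunit, 4 of 12 tested genes fell (33.3%, beside 17.4% of all genes) and 0 rose. Over the 12 the median change was -0.15, with a range from -0.34 to -0.01. The 4 that fell were Rpsa, Rps3a, Rps3 and Rps6. The count was 1 with no filter and on leaving out P1 replicate 3, P1 replicate 4, P21 replicate 1 or P21 replicate 2, and 2 without P21 replicate 4. Rps3a, a protein of the subunit's surface, read 6885, 7249, 7263 and 7183 on P1 replicates 1 to 4 and 5543, 5647, 5748 and 6005 on P21 replicates 1 to 4. The ages did not overlap, and the spread within each was narrow (7145 ± 177 and 5736 ± 198, mean ± SD, n = 4), with a change of -0.32 ± 0.08 (± standard error, as below) and an adjusted p of 0.0109 by limma.

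Rps3, which lies where messenger RNA enters the small subunit, read 6362, 6457, 7126 and 7080.2 at P1 and 5003, 5598, 6054 and 5416 at P21. The ages again did not overlap, though the highest P21 value came close to the lowest P1 value (change -0.29 ± 0.09, adjusted p = 0.0340 by limma). Rps6, the subunit's main phosphorylated protein and the namesake target of the S6 kinases, read 8988, 8604, 9023 and 8860.3 at P1 and 7669, 7189.7, 7751 and 7228 at P21, all lower (change -0.25 ± 0.08, adjusted p = 0.0325 by limma). Without single arrays the adjusted p of Rps3 reached 0.0941 and that of Rps6 0.0838.

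Rpsa, a small-subunit protein that also serves at the cell surface as a laminin receptor, had 3 tested probe sets. The probe set 1367569_at read 5254, 5584, 6704 and 6769 at P1 and 3112, 4180.3, 4548 and 3649.7 at P21, the ages apart (change -0.65 ± 0.14, adjusted p = 0.00528 by limma). The brighter 1388244_s_at read 6090.1, 6056, 6721 and 7129 against 4507, 4929, 5226 and 5878, also apart (change -0.34 ± 0.11, adjusted p = 0.0323). The dimmer 1371189_x_at read 3278 to 3692 against 2395 to 3362, which overlapped (change -0.28 ± 0.12, adjusted p = 0.0910). The suffixes s and x mark probe sets that can also bind transcripts of other genes, so the size of the fall is not settled between -0.65 and -0.28.

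The call of the brighter probe set was lost with no filter and on leaving out P1 replicate 3, P1 replicate 4 or any of P21 replicates 1, 2 and 3 (adjusted p up to 0.0940 by limma).

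The other 8 tested genes of the small subunit did not pass. Rps23, at the decoding centre, read 10193 to 11060.2 at P1 and 9203 to 10218 at P21 (change -0.14 ± 0.08, adjusted p = 0.233 by limma), and was the member nearest the top of the scale. Rps9 had P21 values all below the P1 values (change -0.20 ± 0.08, adjusted p = 0.0814). Rps29, Rps15, Rps24, Rps16, Rps28 and Rps15a had changes of -0.17, -0.13, -0.12, -0.07, -0.02 and -0.01. Rps15a was lower at P21 in 1 of 4 same-numbered pairs, and its change was 0.028 with quantile normalization and as high as 0.075 without single arrays.

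In the large subunit, 5 of 26 tested genes fell (19.2%, near the 17.4% of all genes) and 0 rose. Over the 26 the median change was -0.18, with a range from -0.42 to -0.02. The 5 that fell were Rpl4, Rpl7, Rpl6, Rpl7a and Rpl3. The count was 8 with the replicate number as a block in the fit and with arrays centred on their medians, 3 with quantile normalization and with no filter, 2 without P1 replicate 4, and 3 on leaving out P1 replicate 3 or P21 replicate 1, 2 or 4. Rpl4, part of the wall of the tunnel through which the new protein leaves, read 5631, 5798, 6435 and 6177 at P1 and 4273, 4428, 4784 and 4417 at P21. The lowest P1 value was well above the highest P21 value, and the means were 6010.4 ± 364 and 4476 ± 217 (change -0.42 ± 0.09, adjusted p = 0.00400 by limma).

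Rpl7, whose product contacts the 5S ribosomal RNA region of the subunit, read 5244, 5771, 6184 and 6199 at P1 and 4172, 4375, 4671 and 4687 at P21 by the probe set 1398917_at, with no overlap (change -0.38 ± 0.09, adjusted p = 0.00960 by limma). Its other probe set, 1375788_at, was dim, 497 to 617 at P1, and reached 595 on P21 replicate 4, so the ages overlapped (change -0.45 ± 0.18, adjusted p = 0.0736). Rpl6 read 6713, 7099, 7115 and 7192 at P1 and 5181, 5630.0, 6073 and 5784 at P21, apart (change -0.31 ± 0.09, adjusted p = 0.0176), and did not pass without P1 replicate 4 (adjusted p = 0.0526 by limma).

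Rpl3 and Rpl7a fell from near the top of the scale. Rpl3, which reaches towards the peptidyl transferase centre, read 9891, 9972, 10663 and 10638 at P1 and 7840.5, 8566, 9034 and 8923 at P21 by the probe set 1371300_at (change -0.26 ± 0.09, adjusted p = 0.0388 by limma). Rpl7a read 9608, 9705, 10693 and 10536 at P1 and 8227, 7863, 9215 and 8219.7 at P21 (change -0.27 ± 0.09, adjusted p = 0.0373). Neither gene's ages overlapped. The second probe set of Rpl3, 1396049_x_at, lay lower on the scale and overlapped between the ages (3931 to 4305 and 3534 to 4329, change -0.12 ± 0.09, adjusted p = 0.332). The calls of Rpl3 and Rpl7a were lost with quantile normalization (adjusted p = 0.0527 and 0.0696), as was that of Rps6 (0.0569), and each was lost without most single arrays, with adjusted p up to 0.103, 0.102 and 0.0838.

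**Figure D2:**
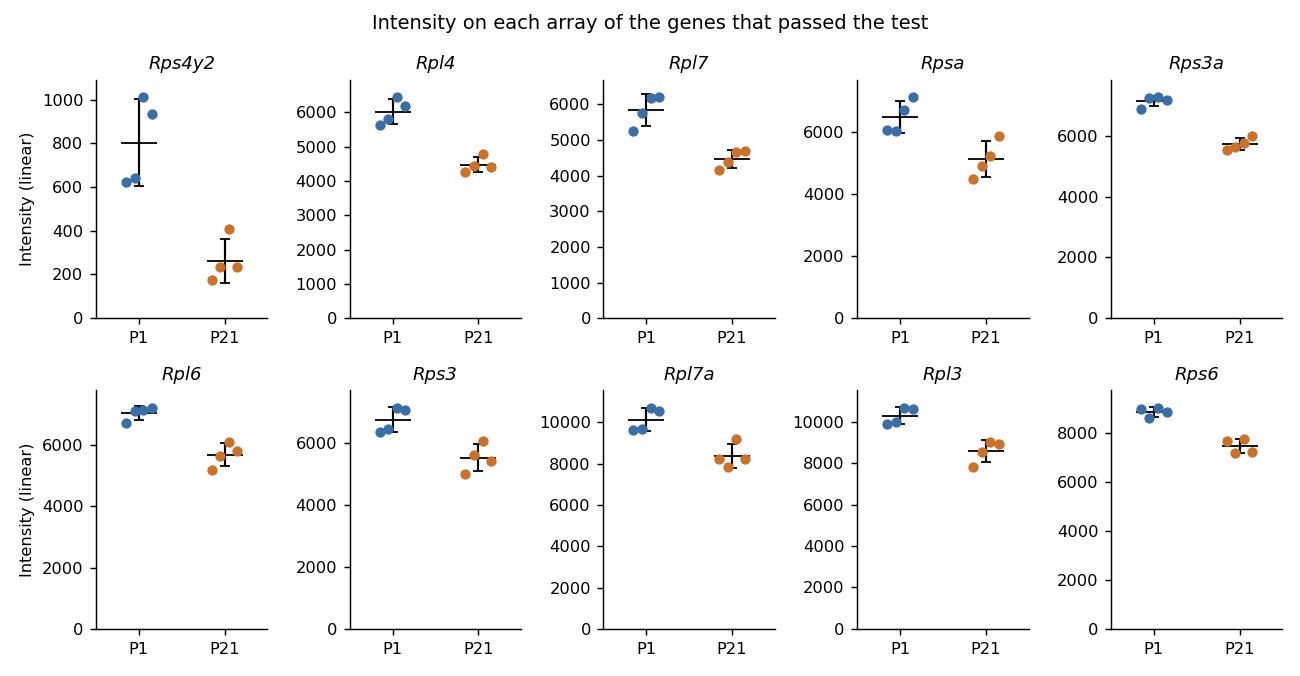
Linear intensity on each array (points, P1 blue, P21 orange) of the 10 genes that passed the test, by the probe set of highest mean, with the mean and SD of the 4 arrays of each age as a bar with whiskers; every axis starts at 0. The ages are apart in all 10 panels, by the widest ratio in Rps4y2, where the means were 802 and 262. Most P21 values of Rps4y2 lay under the level of the filter on dim probe sets.

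The remaining 21 tested genes of the large subunit did not pass. Rpl14 and Rpl24 had the largest changes among them on the probe sets used, -0.24 ± 0.09 (adjusted p = 0.0554 by limma) and -0.25 ± 0.10 (adjusted p = 0.0747). Both passed when the fit took account of the replicate number as a block (adjusted p = 0.0392 and 0.0401) and when arrays were centred on their medians (0.0350 and 0.0412). Rpl5 and Rpl11, which bind the 5S ribosomal RNA and, when free of the ribosome, the p53 regulator Mdm2, had changes of -0.19 ± 0.09 and -0.13 ± 0.10. The P21 values of Rpl5 were all below its P1 values (5821 to 6552 against 6619 to 7559), while those of Rpl11 overlapped (5588 to 6788 against 6136 to 7290.4).

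Rpl34, Rpl23a, Rpl27a and Rpl18 also had no overlap between the ages, with changes of -0.22, -0.18, -0.19 and -0.17 and no call. Rpl23, at the face between the subunits, was apart as well by a narrow margin, with 9519 to 9962 at P1 and 8951 to 9434 at P21 (change -0.09 ± 0.08, adjusted p = 0.369 by limma). At the other end stood Rpl21, Rpl22, Rpl13a and Rpl35a, with changes of -0.05, -0.03, -0.02 and -0.02 and overlapping ages. Rpl39 and Rpl41, among the smallest proteins of the subunit, had changes of -0.13 ± 0.13 and -0.07 ± 0.09. The other 6, Rpl35, Rpl26, Rpl19, Rpl12, Rpl27 and Rpl37a, overlapped between the ages, with changes of -0.21, -0.21, -0.18, -0.15, -0.09 and -0.09.

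Of the stalk, the flexible arm of the large subunit that recruits the elongation factors, only the base protein gene Rplp0 could be tested. It read 4829, 5395, 5547 and 5731 at P1 and 4058, 4528, 5282 and 4871 at P21, where the ages overlapped through P21 replicates 3 and 4 (5375 ± 389.6 and 4685 ± 519, change -0.20 ± 0.11, adjusted p = 0.172 by limma). Rplp1, Rplp2 and Rps27a had no probe set with a single symbol and are not analysed here.

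Rps4y2 had the largest change of the members and was far from the top of the scale. Its symbol is that of a copy of the small-subunit gene Rps4, and RefSeq places it on chromosome 4 of GRCr8. It read 623, 643, 1009.9 and 933 at P1 and 175, 234, 408 and 233 at P21 (802 ± 198 and 262 ± 101, change -1.59 ± 0.25, adjusted p = 8.28e-04 by limma). The ages did not overlap, and 3 of the 4 P21 values lay under the level of the filter on dim probe sets (the 40th percentile of the array), which was 263 to 287 on the P21 arrays. Copies of ribosomal protein genes are alike in sequence, so a probe set can bind transcripts of more than 1 of them.

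The 5 members that were too dim to test were probe sets of Rpl14, Rpl30, Rps24, Rps13 and Rpl28. Those of Rpl14 (1375375_at), Rpl30, Rps24 (1390494_at) and Rps13 lay under the filter level on all 8 arrays, with means at P1 of 174, 75.2, 68.2 and 112 and at P21 of 232, 75.2, 78.7 and 102. The probe set of Rpl28 read 206, 216, 247 and 241 at P1 and 88.4, 76.5, 77.7 and 81.2 at P21, apart between the ages. It was above the filter level on 2 P1 arrays. On the P21 arrays it was under that level throughout, so no fold change is given. Rpl14 and Rps24 had a second, tested probe set, so Rpl30, Rps13 and Rpl28 were the genes with none.

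Many ribosomal protein genes have near-identical copies, and 33 further probe sets carried several symbols with a member's symbol among them. They name no gene here, and they were read only as a group. All 33 were bright enough to test, and 32 had a change below 0. Of all tested probe sets 43.1% had one. The share was 65.5% among all those at 40 to 60% of the array maximum, where this group's median brightness, 51.3%, lay. By the test 13 fell (39.4%, beside 17.4% of all tested probe sets) and 0 rose. The median change was -0.24, with a range from -0.61 to 0.11. Values of this group are given for the main setting only. Of 77 genes on a list of the mammalian cytosolic ribosomal proteins, 42 had a probe set with a single symbol, 27 were found only on such shared probe sets and 8 on neither kind.

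The members sat near the top of the intensity scale. The highest intensity on an array was 10922 to 11540.4 at P1 and 10572 to 10819.7 at P21. The median member stood at 54.9, 55.6, 56.8 and 60.2% of that maximum on P1 replicates 1 to 4 and at 47.7, 50.6, 53.8 and 52.8% on P21 replicates 1 to 4. In rank, the median member stood between the 98.6th and 98.9th percentile of its array at P1 and between the 97.9th and 98.4th at P21, so the P21 arrays were lower by rank as well. Among the 500 brightest probe sets of an array, 23 to 28 were members at P1 and 17 to 22 at P21.

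**Figure D3:**
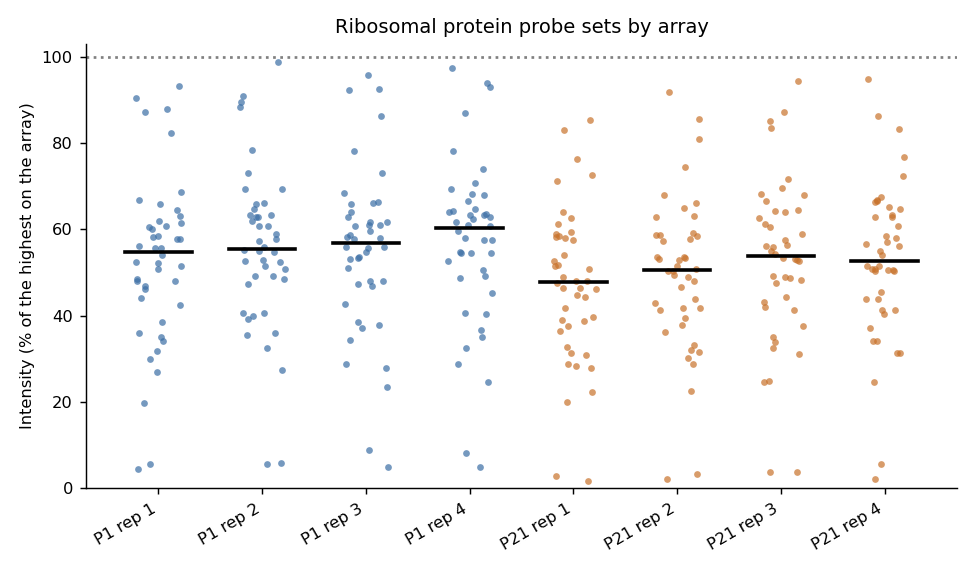
Intensity of each tested ribosomal protein probe set (points) as a percentage of the highest intensity on the same array (dotted line), for the 4 P1 arrays (blue) and the 4 P21 arrays (orange), with the median as a bar. The medians lie between 54.9 and 60.2% at P1 and between 47.7 and 53.8% at P21.

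Rps23 came closest to the maximum, at 96.4% of it in the mean at P1 and 91.7% at P21, and 98.9% on its highest array. Rpl3 stood at 91.9 and 80.1%, Rpl7a at 90.5 and 78.2%, Rpl23 at 87.5 and 85.6% and Rps6 at 79.3 and 69.6%. Of the 44, 27 stood above 50% in the mean over all arrays, 15 between 20 and 50%, and 2 under 10%. Probes near the top can saturate and understate a difference, and the sources used here do not give the intensity at which these arrays saturate. Without the 4 probe sets whose mean at either age was above 80%, 9 of 40 fell, beside 17.4% of all tested probe sets, bright ones included.

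Bright probe sets of all genes leaned the same way, so the members were read beside all tested probe sets of like brightness, the members included. Among all tested probe sets at 0 to 20, 20 to 40, 40 to 60, 60 to 80 and 80 to 100% of the maximum, the share that fell by the test was 16.4, 22.1, 19.9, 11.8 and 5.71%. Of the members in those classes, 1 of 2, 0 of 7, 7 of 21, 1 of 10 and 2 of 4 fell. A change below 0 was found in 39.3, 52.8, 65.5, 73.4 and 91.4% of all probe sets of the classes. The median change was 0.11, -0.03, -0.08, -0.08 and -0.06 over all and -1.02, -0.13, -0.20, -0.17 and -0.20 over the members. In the classes from 20% upward the members' median was the lower one. The dimmest class held only 2 members. The 1 that fell there was Rps4y2, which met the filter through its P1 arrays, so that median is not read. In the brightest class the 2 probe sets that fell, of 35, were the members Rpl3 and Rpl7a.

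**Figure D4:**
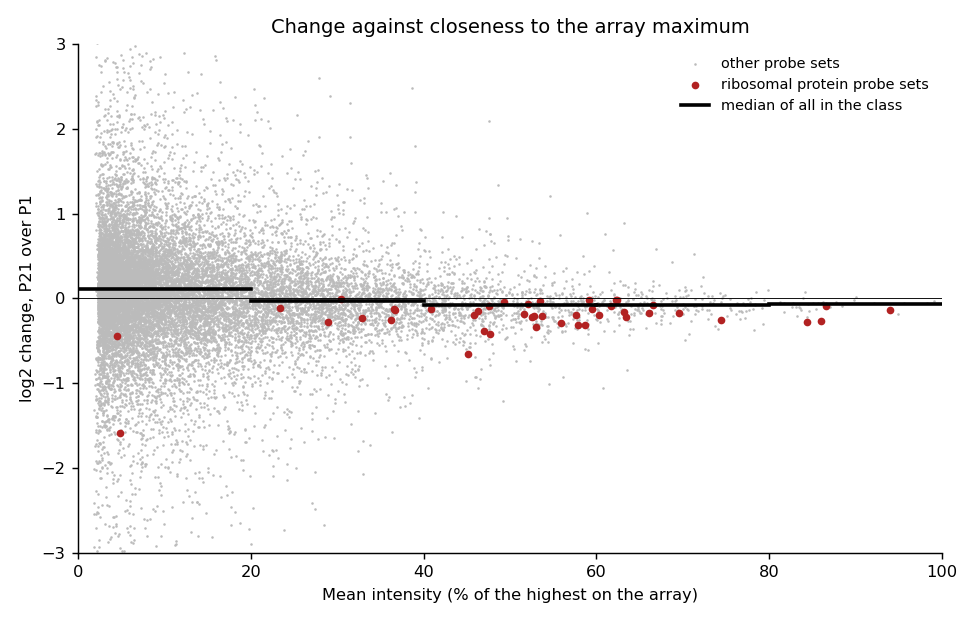
The log2 change of P21 over P1 against the mean intensity as a percentage of the array maximum, for all tested probe sets (grey) and the ribosomal protein probe sets (red), with the median of all probe sets in each of 5 classes of brightness as a black line; 120 probe sets with a change beyond 3 are outside the axis. From 20% of the maximum upward the red points lie at or below 0, and the black lines lie between -0.03 and -0.08.

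The members also shared an order of arrays within each age. P1 replicates 3 and 4 both read above replicates 1 and 2 for 32 of the 44, beside 24.7% of all tested probe sets, and P21 replicates 3 and 4 did so for 35, beside 35.9%. With the replicate number as a block, 16 members fell (36.4%), beside 20.6% of all tested probe sets. Centring the arrays on their medians moved the median of all tested probe sets from 0.07 to -0.07. That of the members moved from -0.19 to -0.32, and the share of calls that were lower went from 45.6 to 61.4%. Centring shifts every change by the same amount, so the distance between the medians of members and of all, -0.25, could not change. Quantile normalization brought the members' median to -0.11 and that distance to -0.12, with 9 members lower (20.5%, beside 21.2% of all tested probe sets) and 0 higher.

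The translation factors, which work on the ribosome, were taken from lists as neighbours in the pathway. Of 12 genes of elongation and termination, 7 fell and 1 rose (median -0.32), so that 58.3% fell beside 17.4% of all genes. The falls numbered 5 (41.7%) with no filter and on leaving out P1 replicate 3, P1 replicate 4, P21 replicate 1 or P21 replicate 2. Eef1a1, the widely used factor that brings aminoacyl-tRNA to the ribosome, fell from 9008 ± 232 to 6433 ± 289.9 (change -0.49 ± 0.08, adjusted p = 0.00117 by limma), and its second probe set fell by 0.59. Eef1a2, the form of mature neurons and muscle, rose from 3692 ± 65.3 to 4495 ± 295 (change 0.28 ± 0.08, adjusted p = 0.0263), and its other, dim probe set did not pass (0.17 ± 0.25). The Eef1a2 call was lost when arrays were centred (adjusted p = 0.409), with no filter, and on leaving out any of 5 arrays. Gspt2, a termination factor, and Eef2k, the kinase that halts elongation by way of Eef2, had the largest falls (-1.18 ± 0.15 and -0.76 ± 0.15), while the second Eef2k probe set did not pass (0.15 ± 0.27).

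Of 37 initiation factor genes, 6 fell (16.2%, beside 17.4% of all genes) and 3 rose, with a median of -0.07. Leaving out P1 replicate 3, P1 replicate 4, P21 replicate 1 or P21 replicate 2 left 2 that fell, and no filter left 3. Eif4b, a helper of the helicase that opens the start of the message, rose by 1.31 ± 0.10 on the probe set used and fell by 0.95 on another, so its direction is not settled. Eif5a2, a rarer form of the hypusine-bearing factor Eif5a, rose on both its probe sets (1.09 and 1.69). Eif2s3, a subunit of the factor that carries the initiator tRNA, and the cap-binding Eif4e2 fell (-0.60 ± 0.20 and -0.56 ± 0.16). The call of Eif2s3 was lost without any 1 of 6 arrays and with no filter, and that of Eif4e2 on leaving out any of 4 (P1 replicates 3 and 4, P21 replicates 1 and 2).

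Among 12 genes of other messages known to bear a TOP tract, 6 fell (50%, beside 17.4% of all genes), with a median of -0.31. The other call was Eif4b, which counts as 1 rise by the probe set used and as a seventh fall by the other. Besides Eef1a1, these included Eef2, the translocation factor, from 3874 ± 460.4 to 2576 ± 481 (change -0.60 ± 0.15, adjusted p = 0.0108 by limma), and Rack1, a signalling scaffold bound to the small subunit, from 5899.6 ± 454 to 4089.3 ± 359 (change -0.53 ± 0.10, adjusted p = 0.00264). Some genes of this list are also on the lists of factors above. The calls of Eef2 and Rack1 held in all 15 alternative settings. The falls on this list numbered 4 (33.3%) with no filter and on leaving out P1 replicate 3 or 4 or P21 replicate 1, 2 or 4. In each of these settings the calls of Eef1g and Naca were lost. Of 15 genes that act on messages with a TOP tract, 3 fell (20%, beside 17.4% of all genes) and 1 rose (median -0.01). With the replicate block 4 rose. Eif4ebp1, a repressor of the cap-binding factor Eif4e under mTOR control, and Tsc2, an inhibitor of mTOR, fell (-0.60 ± 0.16 and -0.50 ± 0.13). The S6 kinase gene Rps6kb1 rose (0.33 ± 0.10). The kinase did not pass once arrays were centred (adjusted p = 0.256), with no filter, or on leaving out any of 5 arrays. The third gene that fell was Mtor itself (-0.31 ± 0.09), which did not pass with no filter or on leaving out any of 5 arrays.

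Of 53 genes of ribosome assembly, 11 fell (20.8%, beside 17.4% of all genes) and 6 rose, with a median of -0.08. Centring gave 16 that fell and 1 that rose, and the replicate block 17 and 8. The falls numbered 6 without P21 replicate 2 and 7 without P1 replicate 4 or P21 replicate 1, and the rises 3 with no filter and on leaving out P1 replicate 1, 3 or 4 or P21 replicate 4. Taf1d, a factor of RNA polymerase I, and Nolc1, a nucleolar chaperone, had the largest falls (-0.82 ± 0.23 and -0.59 ± 0.15). The second Nolc1 probe set did not pass (0.26 ± 0.11), and the call of Taf1d was lost without P21 replicate 1 or 2. The helicase gene Ddx56 (0.81 ± 0.23) and the RNA acetyltransferase gene Nat10 (0.69 ± 0.19) rose, the latter not with centring or quantile normalization (adjusted p = 0.0528 and 0.0710). Of 73 genes of mitochondrial ribosomal proteins, which serve the separate ribosomes of mitochondria, 4 fell (5.48%, beside 17.4% of all genes) and 4 rose. Their median change was -0.03. Centring gave 7 that fell and 0 that rose, and the replicate block 10 and 7. Leaving out P1 replicate 4, P21 replicate 1 or P21 replicate 2 left 1 that fell, and leaving out P1 replicate 3 left 2. The rises numbered 1 without P1 replicate 1 or P21 replicate 4, and 2 without P1 replicate 3 or P21 replicate 3 and with no filter. Mrps24 (-0.56 ± 0.16) and Mrps2 (-0.46 ± 0.09) fell and Mrps16 (0.44 ± 0.12) and Mrpl48 (0.40 ± 0.11) rose, the rises not on centring (adjusted p = 0.123 and 0.161). The Mrps24 call depended on the same 4 arrays as that of Eif4e2, and the Mrpl48 call on P1 replicate 1 and P21 replicates 3 and 4. The other probe sets of Mrps24 and Mrps2 did not pass (0.09 and 0.20). The medians of cytosolic and mitochondrial ribosomal proteins were not tested against each other.

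**Figure D5:**
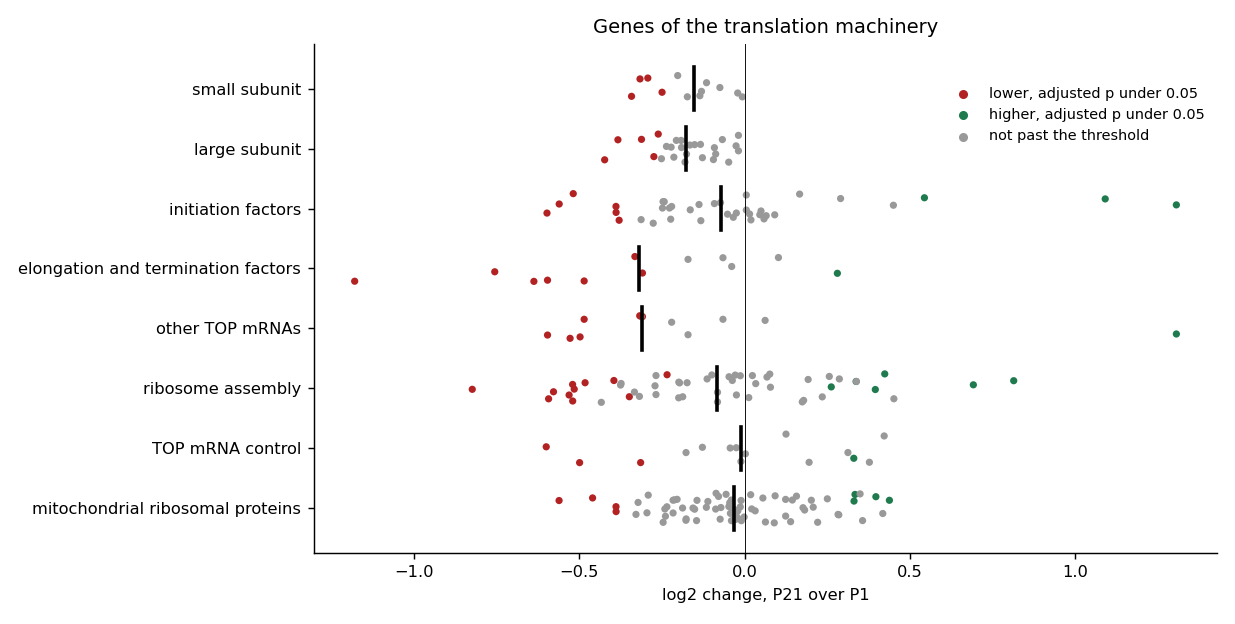
The log2 change of P21 over P1 of each gene (points) on 8 lists of the translation machinery, by its probe set of highest mean, red or green where the adjusted p was under 0.05 and grey otherwise, with the list's median as a black bar. The medians are -0.15 and -0.18 for the subunits, -0.32 for elongation and termination factors and -0.03 for mitochondrial ribosomal proteins.

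Of the genes marked as like copies, 2 were tested. Rpl26l1, a close copy of Rpl26, fell from 683 ± 75.6 to 465 ± 65.4 (change -0.54 ± 0.13, adjusted p = 0.00742 by limma), while Rpl26 itself did not pass (-0.21 ± 0.12, adjusted p = 0.215). The probe sets of Rpl7l1 had changes of -0.34 and -0.42 and did not pass (adjusted p = 0.0518 and 0.0638).

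Markers of other cell types were present in these arrays and moved between the ages as well. Of 5 motoneuron markers, Chat rose, Isl1 fell and 3 did not pass, with a summed intensity of 17643 to 20383 at P1 and 18996 to 23899 at P21, and all were above 0. All 7 tested oligodendrocyte markers rose, from a sum of 6032 to 7605 at P1 to 31957 to 34625 at P21. Of the astrocyte markers 4 of 6 rose and 1 fell (10317 to 11823 and 14371 to 17622), of the microglial 4 of 6 rose (2111 to 3142 and 4510.1 to 7424), of the endothelial 3 of 4 (2059.8 to 3296 and 2566 to 5402) and of the erythrocyte 2 of 3 (2535 to 8241 and 8699 to 12425). Of 3 interneuron markers 2 fell and 1 rose (6967 to 7574 and 4530.4 to 7031). No tested marker was at 0 throughout an age. Their part in the lower levels of the ribosomal protein genes was not tested.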

How the data were processed

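Motoneurons were captured by laser from 12-micron sections, between 1500 and 2000 per array, and about 50 ng of RNA per pool was amplified in 2 rounds from the poly(A) tail, per the labels' protocols. The values deposited by the authors are linear intensities of 31042 probe sets on 8 arrays. The sources used here do not say how they were summarised, corrected for background or scaled. The number of arrays limits the precision.

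Negative intensities were raised to 0, and limma was run on log2(intensity + 16) (limma 3.58.1, R 4.3.3, lmFit and eBayes, no covariate), P21 against P1. Fold changes on this scale understate dim probe sets. Probe sets above the 40th percentile of their array on at least 4 arrays (19155) were tested. The fit was tested on simulated data. Symbols came from the platform annotation, where 20826 probe sets had 1 symbol, 436 several and 9780 none. A gene took its tested probe set of highest mean.

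Same-numbered arrays correlated in their deviations from the mean of their age at 0.514, 0.321, 0.558 and 0.150. Arrays of different number correlated at -0.458 to 0.366. The highest of these, P1 replicate 4 with P21 replicate 3, was above the 0.150 of P1 replicate 4 with its own number. Whether the numbers pair the arrays is therefore not settled. The main fit took no account of them, and the block on the number was an alternative. Replicates are pools named as biological replicates. The named genes were those called, Rplp0, Rpsa, Rps6, the 5 nearest to and farthest from the maximum, genes whose probe sets differed in call, dim members, and the 2 largest called changes each way per list. Further members were named after their values were seen. Members, lists and this rule were chosen with earlier results of these data known. Alternatives changed the scaling, pseudocount, filter, block, probe set rule and arrays used. Start sites are RefSeq's.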

Additional observations from a re-analysis of the deposited data

Results flagged for a closer look

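Of 98 sets of 4 arrays (49 probe sets at each age), 2 held an array whose gap to the nearest other exceeded the 95% limit for 4 values. Chance gives about 1 in 20 such sets. Rpl24 read 3828 on P1 replicate 1, against 4451 to 4571 on the remaining arrays of that age. Rpl13a read 6345 on P21 replicate 1, below the 6879.7 to 6981 of the other P21 arrays. Without P1 replicate 1 Rpl24 passed limma's test (adjusted p = 0.0471), and over single arrays left out its adjusted p lay between 0.0471 and 0.177.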

How the results depend on the processing

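The number of ribosomal protein probe sets that passed, 11, was 7 with no filter (14.3%, beside 10.3% of all probe sets) and 5 to 10 when 1 array at a time was left out (11.4 to 22.7%, beside 13.9 to 17.4%), and the number of genes, 10, was 6 with no filter and 4 to 9 without single arrays. Both counts with no filter include the dim Rpl28, which the main setting did not test, so fewer of the main calls held. Centring gave 16 probe sets (36.4%, beside 21.8% of all probe sets) and moved the median change to -0.32. With the replicate number as a block, 16 probe sets and 13 genes passed, and 8805 of all probe sets passed against 7329. The block cannot move the median change, -0.19, since every number has 1 array at each age. The block also changed the calls of Rpl14 and Rpl24, both gained, and no other among the 17 genes followed through the alternatives. In all 16 settings, the main one included, 0 members rose, and 5 probe sets passed in each, those of Rps4y2, Rps3a, Rpl4, Rpl7 (1398917_at) and Rpsa (1367569_at). Most P21 values of Rps4y2 lay under the filter level, which it met through its P1 arrays. With the probe set of lowest mean 7 genes passed, and with the mean of a gene's probe sets 10. The gene counts under the alternatives are given without a share over all genes, so they are not read against a background. The change of Rps15a, which did not pass, turned to 0.028 with quantile normalization, lay between -0.067 and 0.075 without single arrays, and was above 0 without P1 replicate 2, P21 replicate 1 or P21 replicate 2. Of 255 comparisons of these 17 genes with an alternative, 207 kept the direction and side of the threshold, 38 lost the call, 6 gained it and 4 reversed. The cause of these differences was not tested, and leaving out an array also leaves fewer samples. The intensity at which probes saturate is unknown.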
